A study of Mus musculus with 7 samples.

Results

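Imprinted noncoding RNAs are transcribed from only the maternal or only the paternal chromosome, and 8 of them were followed here in chromatin-associated RNA of mouse embryonic stem cells (mES cells) treated with an inhibitor of METTL3. The members are set by symbol, with no threshold on a measured value: Kcnq1ot1, Airn, Meg3, Rian, Mirg, H19, Nespas and Peg13. They are 8 of the 22556 genes in the deposited expression table. Of these, 7 were above 0 and passed the filter of a mean of at least 1 read pair per 1000000 (RPM), which 13599 genes passed, while Peg13 was at 0 in every library for a reason given below.

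All libraries came from C7H8, a single clone of iXist-ChrX_Cast female (XX) mES cells with a Cast and a 129S genome, whose endogenous Xist gene on the Cast X chromosome is driven by a TetOn promoter. Cells were grown in serum and LIF on mitomycin-inactivated mouse fibroblast feeders, received DMSO or STM2457, a small molecule that inhibits the m6A-writing enzyme METTL3, for 6 h, and were then kept with DMSO or STM2457 and doxycycline for a further 24 h, so that every group expressed Xist. The 7 ChrRNA-seq libraries were 3 of DMSO, 2 of 10 µM STM2457, 1 of 20 µM and 1 of 30 µM. Each 10 µM library was read against the DMSO library of its own replicate number (set A, DMSO 1 and 2 with 10 µM 1 and 2), and the 20 and 30 µM libraries were read against DMSO 3 (set B). These matches follow the rule of the comparison, since the labels name no runs. The labels give replicates as numbers alone, while the study's methods describe independent repeats of a clone. At 10 µM, p-values therefore cover the spread between repeats of this 1 clone. The dose fit also draws on set B, with 1 library per dose. Its p-values thus mix that spread with departures from a straight line and from a slope shared by both sets. The 20 and 30 µM comparisons share DMSO 3 as their control and have no replicate.

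Imprinted clusters carry a differentially methylated CpG-rich region that sets which parental copy is active. Kcnq1ot1 and Airn are long, paternally expressed transcripts that run antisense to Kcnq1 and Igf2r and silence neighbouring genes in cis, in extraembryonic tissues above all. Meg3, Rian and Mirg lie in that order on the maternal chromosome of the Dlk1-Dio3 domain, carry many snoRNAs and microRNAs in their introns, and are a well-known marker of imprint integrity in stem cells. H19 is maternally expressed opposite Igf2, Nespas is paternally expressed antisense at the Gnas locus, and Peg13 lies in an intron of Trappc9. METTL3 methylates adenosines of nascent RNA, coding and noncoding alike, and m6A is known to affect how long such RNAs persist on chromatin.

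Depth ran from 9300549 read pairs in genes (20 µM) to 28030180 (DMSO 2), with a median of 23367051. DMSO 3 stood apart from DMSO 1 and 2: 9.67% of the 13599 genes were at least 1.5-fold higher in it and 25.8% at least 1.5-fold lower. Set and dose cannot be told apart where 20 or 30 µM is set beside 10 µM. The 20 µM library was the shallowest, and 5 genes (Lars2, Cmss1, Gphn, Cdk8 and Camk1d) took 8.92% of its reads, against 1.16% in DMSO 3. Of 14 fibroblast markers, 6 averaged at least 1 RPM, and the list summed to 27.2 to 36.9 RPM with Fbn1 the highest (mean 18.3 RPM), while Col3a1 and Postn did not exceed 0.43 RPM. The 10 stem cell markers summed to 1667 to 2235 RPM, with Esrrb highest. Sox2 is listed at 0, but its row lies inside another on the same strand, a position at which nearly all rows are at 0 in this table, so its level could not be read. The 8 primitive endoderm markers summed to 530.1 to 561 RPM in set A and 349.6 to 443 RPM in set B. Lama1 made up most of that sum and was lower than its DMSO in all 4 inhibitor libraries, whereas Col4a1 and Dab2 were higher in all 4, and of the 7 tested only Col4a1 passed with the replicate block (0.36, limma, adjusted p = 0.00196), under which 4.13% of all genes rose. Less RNA per cell and fewer expressing cells cannot be told apart in such bulk samples.

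Where these RNAs start is shown first, for the 2 antisense transcripts that were higher in every inhibitor library and for the 2 Dlk1-Dio3 transcripts that were lower in every one. The sequences are RefSeq's 300-base windows on GRCm38.p6, from 250 bases before to 50 bases after the annotated start, written 5′ to 3′ on the transcript's strand, with each CpG dinucleotide in capitals. Such windows were at hand for 5 of the 8 members. The Kcnq1ot1 window is chr7:143296498-143296797 on the minus strand, within an intron of Kcnq1. The Airn window is chr17:12741061-12741360 on the plus strand, inside Igf2r. The Meg3 window, the more upstream of 2 annotated starts, is chr12:109540746-109541045 on the plus strand, and the Rian window is chr12:109603695-109603994 on the plus strand.
Kcnq1ot1: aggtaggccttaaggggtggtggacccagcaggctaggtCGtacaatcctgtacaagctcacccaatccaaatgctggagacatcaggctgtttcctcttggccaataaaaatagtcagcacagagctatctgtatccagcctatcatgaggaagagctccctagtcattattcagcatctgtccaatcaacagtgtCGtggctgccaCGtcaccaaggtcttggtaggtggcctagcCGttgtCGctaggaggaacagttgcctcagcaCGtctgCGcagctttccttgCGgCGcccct
Airn: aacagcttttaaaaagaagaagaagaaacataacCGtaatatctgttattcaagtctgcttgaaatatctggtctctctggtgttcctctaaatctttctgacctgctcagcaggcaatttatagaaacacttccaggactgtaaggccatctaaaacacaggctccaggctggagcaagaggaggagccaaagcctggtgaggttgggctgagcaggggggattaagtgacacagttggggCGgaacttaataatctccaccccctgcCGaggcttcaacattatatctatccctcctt
Meg3: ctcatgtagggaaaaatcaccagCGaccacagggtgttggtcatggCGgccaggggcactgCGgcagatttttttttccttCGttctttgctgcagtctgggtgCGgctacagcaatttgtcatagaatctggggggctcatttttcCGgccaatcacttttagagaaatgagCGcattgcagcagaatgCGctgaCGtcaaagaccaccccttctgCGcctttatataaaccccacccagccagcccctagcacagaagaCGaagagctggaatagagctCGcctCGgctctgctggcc
Rian: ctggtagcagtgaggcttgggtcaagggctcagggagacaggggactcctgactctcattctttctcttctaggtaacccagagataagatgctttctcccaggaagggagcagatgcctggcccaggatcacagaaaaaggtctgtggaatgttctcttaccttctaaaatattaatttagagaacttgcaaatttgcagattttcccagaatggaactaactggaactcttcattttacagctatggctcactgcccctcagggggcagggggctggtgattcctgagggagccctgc

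The windows differ in CpG content. The Meg3 window holds 13 CpG, that of Mirg 10 and that of Kcnq1ot1 9, against a median of 7 over 32851 promoter windows of the same length. The Airn window holds 3 CpG and that of Rian 0. The letters TGCCGC, the core recognised by the imprint-protecting protein ZFP57, were searched on both strands: the Meg3 window holds 1 match, the Kcnq1ot1, Airn, Rian and Mirg windows hold 0, and 11.6% of all windows hold at least 1.

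By level, Rian was among the most abundant RNAs of the chromatin fraction, ranking between 2 and 11 of the 13599 genes in every library. Kcnq1ot1 ranked between 4 and 23, Meg3 between 11 and 39, Mirg between 99 and 690, Nespas between 1086 and 1574, Airn between 1249 and 3572, and H19 between 6073 and 12134. Per kilobase of the length given in the table, the mean level over the 7 libraries was 69.9 RPM per kb for Rian, 51.7 for Meg3, 40.0 for Mirg, 25.6 for Kcnq1ot1, 13.7 for Nespas, 3.29 for H19 and 0.975 for Airn. Rian and Meg3 overlapped in set B, at 50.2 to 77.4 and 47.0 to 79.9 RPM per kb. Meg3 and Mirg did not keep their order: they overlapped in set A (35.4 to 53.3 and 47.2 to 53.2 RPM per kb) and were apart in set B (47.0 to 79.9 and 19.8 to 31.8). Mirg and Kcnq1ot1 did not keep theirs either, since Kcnq1ot1 was at 30.5 to 42.6 RPM per kb in set B and at 16.7 to 17.8 in set A. Kcnq1ot1 stood above Nespas in both sets, by little in set A, where Nespas was at 12.0 to 14.9 RPM per kb.

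**Figure D1:**
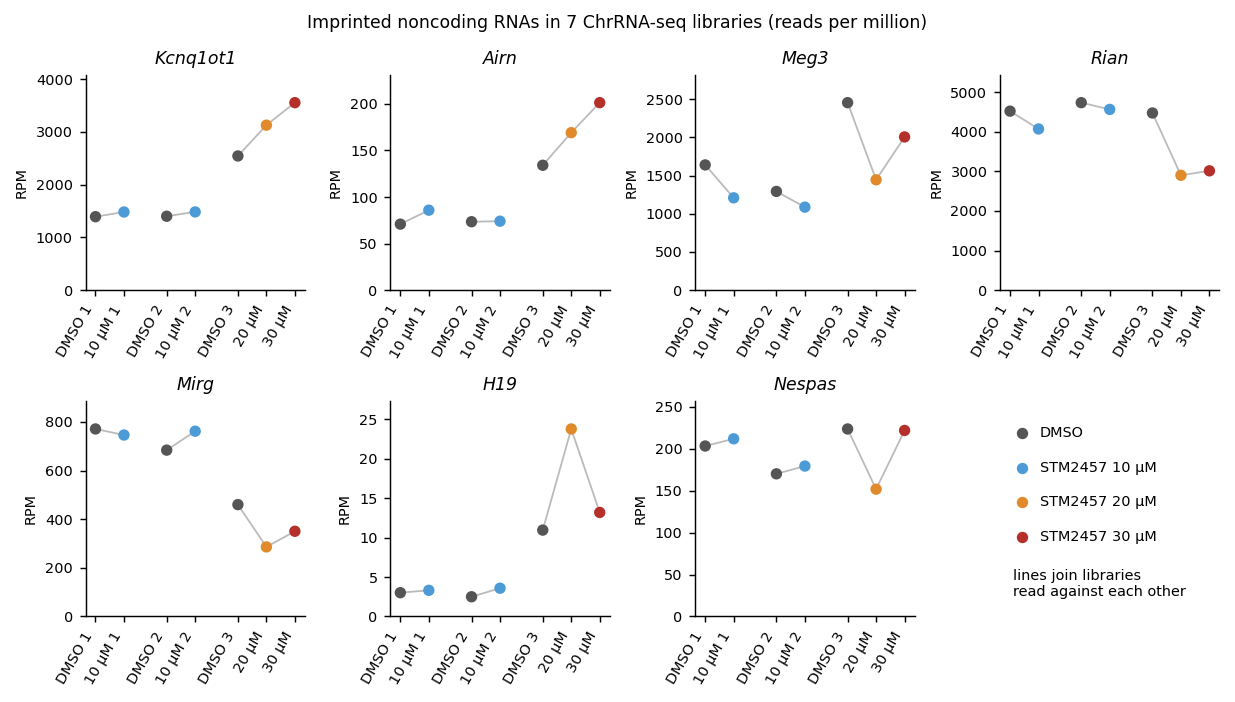
Level of the 7 detected noncoding RNAs in each library, in RPM on a linear axis from 0, coloured by treatment, with lines joining libraries read against each other. Kcnq1ot1, Airn and H19 sit higher in all 3 libraries of set B than in any of set A, and Mirg sits lower.

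The question put to the data was whether the level of each RNA moved with METTL3 inhibition. In the comparison of 10 µM STM2457 with DMSO 1 and 2 (2 libraries a group, limma on log2(RPM + 1), Benjamini-Hochberg adjusted over all genes), 0 of the 7 members passed the adjusted threshold of 0.05, against a background of 0.00735% of genes (1 of 13599). Meg3 was the 1 member with an unadjusted p under 0.05, as had 5.41% of all genes. With the replicate number as a block, so that each 10 µM library is set against the DMSO library split from the same cells, 1020 genes passed, 4.13% of all genes higher and 3.38% lower, and 1 of the 7 members was among them, Meg3, lower. In the fit of dose over all 7 libraries with a term for the set, 0 of the 7 passed, against a background of 0.0735% higher and 0.125% lower, and 3 (Kcnq1ot1, Airn and Rian) had an unadjusted p under 0.05, as did 10.3% of all genes.

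Read by direction alone, Kcnq1ot1, Airn and H19 were above their own DMSO in all 4 inhibitor libraries, as were 15.9% of all genes, and Meg3 and Rian were below it in all 4, as were 14.0%. At 20 µM, H19 was at least 1.5-fold higher than DMSO 3 (5.63% of genes were) and Meg3, Rian and Mirg were at least 1.5-fold lower (7.25% were). At 30 µM none of the 7 reached 1.5-fold on the log2(RPM + 1) scale in either direction, with backgrounds of 5.29% higher and 2.6% lower. With a pseudocount of 0.1 RPM, Airn passed it upward at 30 µM (0.5858 against 0.585), as did 1169 of the 13599 genes. The median gene lay 0.10 below DMSO 3 at 20 µM on the log2 scale and 0.04 above it at 30 µM, and scaling by TMM factors raised the median of all genes at 20 µM by 0.12 and each member's difference by 0.13. With TMM factors Meg3 was still past 1.5-fold at 20 µM (-0.64 on the log2 scale), while Rian (-0.50) and Mirg (-0.56) were not. At 30 µM Rian passed it with these factors (-0.62). Of the 13599 genes, 599 were at least 1.5-fold lower at 20 µM with TMM factors and 437 at 30 µM, against 986 and 353 without them.

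**Figure D2:**
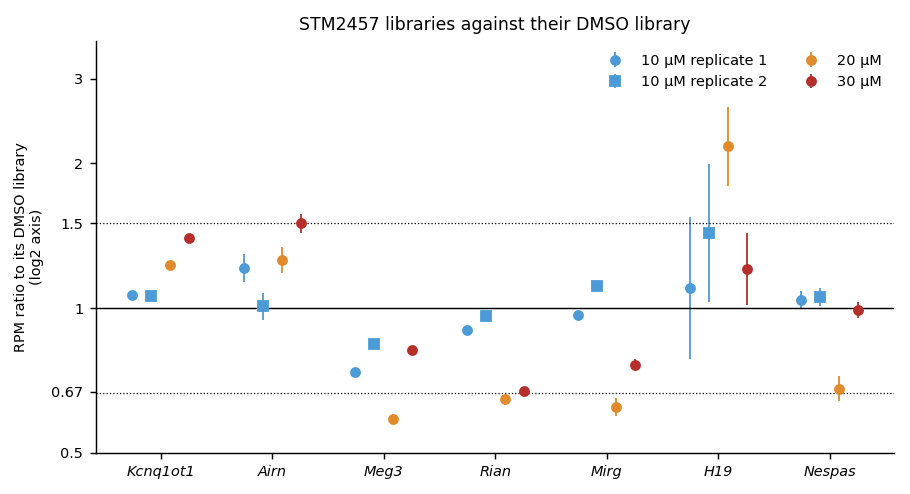
Ratio of the RPM in each inhibitor library to its own DMSO library, on a log2 axis, with bars for the 95% Clopper-Pearson interval of counting error alone. Dotted lines mark 1.5-fold either way, and the Kcnq1ot1 ratios run from 1.06 at 10 µM to 1.40 at 30 µM while all 4 Meg3 ratios lie between 0.589 and 0.841.

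Kcnq1ot1 (chr7:143213110-143296547, minus strand, mm10) was steady between the replicates of set A, though not between the sets. It stood at 1392 and 1401 RPM in DMSO 1 and 2 and at 1481 and 1483 RPM at 10 µM. In set B it stood at 2543 RPM in DMSO 3, 3126 RPM at 20 µM and 3553 RPM at 30 µM. Within each set the inhibitor libraries lay above every DMSO library, and the values in set B were in the order of dose. The ratios to DMSO were 1.06 (95% interval 1.05 to 1.08) and 1.06 (1.04 to 1.07) at 10 µM, 1.23 (1.21 to 1.25) at 20 µM and 1.40 (1.38 to 1.41) at 30 µM, from 29078 to 83017 read pairs in these inhibitor and DMSO libraries. These intervals cover counting error only, since reads without molecular identifiers are not independent molecules. At 10 µM the difference was 0.09 ± 0.07 (SE) on the log2 scale with limma without a block (adjusted p = 0.936). With the replicate block its SE was 0.06 (limma, adjusted p = 0.489). The slope was 0.15 ± 0.05 per 10 µM (limma, adjusted p = 0.250), higher in 4 of 4 inhibitor libraries. An exact two-sided permutation of the doses within sets gave p = 0.0278 (0.660 after Benjamini-Hochberg adjustment over all genes). That is the smallest p that the 36 assignments allow, and 4.21% of all genes reached it. The assignments did not keep the replicate pairs of set A. DMSO 3 held 1.82 times the mean of DMSO 1 and 2, a gap larger than any of the inhibitor ratios.

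Airn (chr17:12741310-12859884, plus strand) had far fewer reads and a looser pattern. It stood at 70.9 and 73.5 RPM in DMSO 1 and 2 and at 85.9 and 74.1 RPM at 10 µM, then at 134 RPM in DMSO 3, 169 RPM at 20 µM and 201 RPM at 30 µM. Replicate 1 carried the difference at 10 µM, with a ratio of 1.21 (1.13 to 1.30), while replicate 2 gave 1.01 (0.945 to 1.08). The ratios were 1.26 (1.19 to 1.34) at 20 µM and 1.50 (1.43 to 1.57) at 30 µM, the latter just under the 1.5-fold threshold on the log2(RPM + 1) scale (0.582 against 0.585). The slope was 0.18 ± 0.05 (SE) per 10 µM (limma, adjusted p = 0.190), and the same exact permutation test again gave p = 0.0278. As for Kcnq1ot1, DMSO 3 lay 1.86-fold above the mean of DMSO 1 and 2.

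The coding genes on the opposite strand were counted apart from these antisense RNAs, because counting used strand. Kcnq1, a potassium channel gene that contains the whole of Kcnq1ot1, was 13.3 and 15.5 RPM in DMSO 1 and 2, 11.6 and 16.1 RPM at 10 µM, 7.40 RPM in DMSO 3, 9.89 RPM at 20 µM and 11.3 RPM at 30 µM. Kcnq1ot1 therefore held between 90.3 and 128 times as many reads as Kcnq1 in set A and between 313 and 343 times as many in set B. Igf2r, the mannose 6-phosphate receptor gene that Airn overlaps over 28.4 kb, was 143 and 155 RPM in DMSO 1 and 2, 142 and 175 RPM at 10 µM, 59.6 RPM in DMSO 3, 62.4 RPM at 20 µM and 70.4 RPM at 30 µM. The ratio of Airn to Igf2r lay between 0.424 and 0.606 in set A and between 2.25 and 2.86 in set B, so which of the pair was the more abundant depended on the set. Igf2r was not lower where Airn was higher within set B: both had their lowest value of the set in DMSO 3.

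**Figure D3:**
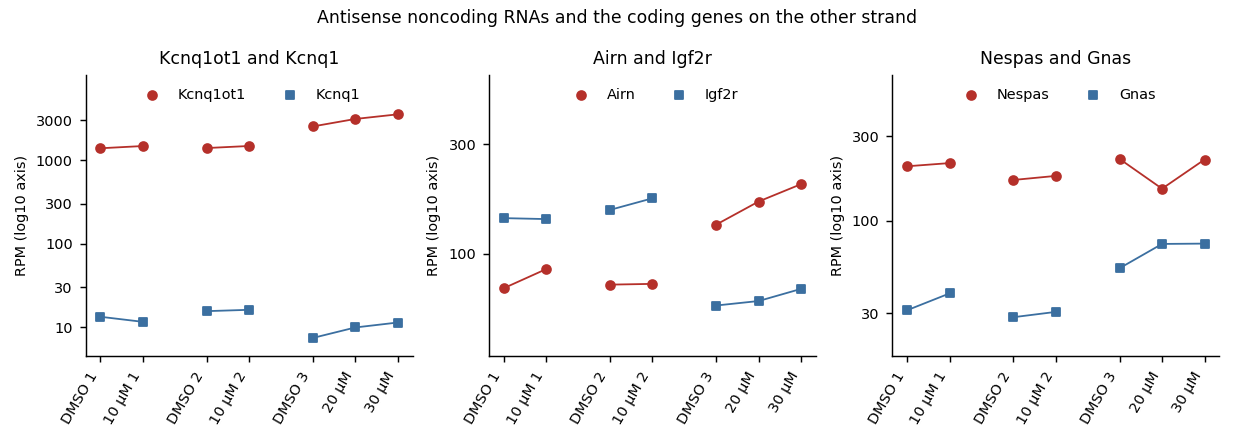
RPM on a log10 axis of Kcnq1ot1, Airn and Nespas (red circles) and of the coding genes on the other strand, Kcnq1, Igf2r and Gnas (blue squares), in each library. Airn lies below Igf2r in all 4 libraries of set A and above it in all 3 of set B.

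Of the 10 coding neighbours listed for the Kcnq1 cluster, 7 were tested and 0 passed in the 10 µM fit without a block or in the dose fit. With the replicate block, under which 4.13% of all genes rose, 1 of the 7 did, Slc22a18, a membrane transporter gene of the cluster, by 0.62 ± 0.17 (SE) on the log2 scale (limma, adjusted p = 0.00809), from 4.69 and 4.10 RPM in DMSO 1 and 2 to 6.66 and 7.97 RPM at 10 µM. It was 1.35 RPM in DMSO 3, 1.18 RPM at 20 µM and 3.08 RPM at 30 µM, so below its DMSO in 1 of the 4 inhibitor libraries. The median slope of these 7 genes was 0.11 per 10 µM, beside 0.01 over all genes. The imprinted growth restrictor Cdkn1c was at or under 1.94 RPM in every library.

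Meg3 (chr12:109540995-109568650, plus strand) was the member with the clearest difference at 10 µM. It stood at 1639 and 1292 RPM in DMSO 1 and 2 and at 1209 and 1087 RPM at 10 µM, so that the groups did not overlap. In set B it stood at 2454 RPM in DMSO 3, 1445 RPM at 20 µM and 2005 RPM at 30 µM, lower than DMSO in both but not in the order of dose. The ratios were 0.737 (0.726 to 0.749) and 0.841 (0.828 to 0.855) at 10 µM, 0.589 (0.578 to 0.600) at 20 µM and 0.817 (0.807 to 0.827) at 30 µM. At 10 µM Meg3 was lower by 0.34 on the log2 scale (-0.34, SE 0.12, adjusted p = 0.891 with limma without a block). With the replicate block the same difference had an SE of 0.06 and passed (limma, adjusted p = 1.37e-05), lower in 2 of 2 pairs. The paired differences were -0.44 and -0.25. With only 2 pairs, that SE rests mostly on the spread that limma borrows from other genes. The size of the difference without the block rested on single libraries: it was -0.17 without DMSO 1 (adjusted p = 0.993), -0.52 without DMSO 2 (0.882), -0.27 without 10 µM replicate 2 (0.507) and -0.42 without 10 µM replicate 1 (0.0288). Each of these fits leaves 1 library in an arm, which is assumed to vary like the other arm, so the last one is no further support. The slope was -0.17 ± 0.08 (SE) per 10 µM (limma, adjusted p = 0.491). It was -0.07 without DMSO 3, a fit in which set B compares only 20 with 30 µM, and -0.37 without the 30 µM library.

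Rian (chr12:109603944-109661711, plus strand), the snoRNA host of the domain, was level among the 3 DMSO libraries and lower in set B with the inhibitor. It stood at 4518, 4732 and 4471 RPM in DMSO 1, 2 and 3, at 4068 and 4561 RPM at 10 µM, at 2898 RPM at 20 µM and at 3012 RPM at 30 µM. The 10 µM values overlapped those of DMSO, whereas the 20 and 30 µM values lay below every other library. The ratios were 0.900 (0.893 to 0.908) and 0.964 (0.956 to 0.972) at 10 µM, 0.648 (0.640 to 0.657) at 20 µM and 0.674 (0.667 to 0.680) at 30 µM. The slope was -0.19 ± 0.06 (SE) per 10 µM (limma, adjusted p = 0.225), at percentile 3.17 of all slopes. It was -0.05 without DMSO 3, a fit in which set B compares only 20 with 30 µM. It passed without the 20 µM library (-0.17, adjusted p = 0.0477) and with DESeq2 on the recovered read counts (-0.20, adjusted p = 0.00815). In the exact permutation test p was 0.139.

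Mirg (chr12:109734980-109749457, plus strand), the microRNA host, showed no steady direction at 10 µM and lower values in set B. It stood at 771 and 684 RPM in DMSO 1 and 2, at 746 and 762 RPM at 10 µM, at 460 RPM in DMSO 3, at 286 RPM at 20 µM and at 350.2 RPM at 30 µM. The ratios were 0.968 (0.948 to 0.988) and 1.11 (1.09 to 1.14) at 10 µM, 0.622 (0.596 to 0.649) at 20 µM and 0.762 (0.740 to 0.784) at 30 µM. The slope was -0.12 ± 0.07 (SE) per 10 µM (limma, adjusted p = 0.585). In the exact permutation test p was 0.306 for Meg3 and 0.472 for Mirg.

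Along the domain, the 3 RNAs did not keep a fixed proportion. Between the DMSO libraries, DMSO 3 held 1.67 times the Meg3 level of DMSO 1 and 2, 0.967 times the Rian level and 0.632 times the Mirg level, for RNAs that lie in this order from 5′ to 3′. The ratio of Mirg to Meg3 was 0.470 and 0.529 in DMSO 1 and 2 and 0.187 in DMSO 3. At 10 µM it was 0.617 and 0.701, which is 1.31 and 1.32 times that of the paired DMSO library. At 20 and 30 µM it was 0.198 and 0.175, or 1.06 and 0.932 times DMSO 3. Their summed level was 6928 and 6708 RPM in DMSO 1 and 2, 6022 and 6409 RPM at 10 µM, 7385 RPM in DMSO 3, 4629 RPM at 20 µM and 5367 RPM at 30 µM, so each inhibitor library was below its own DMSO. The further transcript 6430411K18Rik, which lies between Meg3 and Rian and was looked up after these values were seen, was 87.8 and 87.2 RPM in DMSO 1 and 2, 81.8 and 99.5 RPM at 10 µM, 50.7 RPM in DMSO 3, 25.9 RPM at 20 µM and 37.7 RPM at 30 µM. Its DMSO 3 level was 0.580 times the mean of DMSO 1 and 2, below that of Rian, so the differences between DMSO libraries did not follow position. Of the domain's paternally expressed coding genes, Dlk1 did not exceed 1.29 RPM and Dio3 1.63 RPM, and Begain lay between 7.28 and 12.0 RPM. Of the 4 listed, 2 were tested and 0 passed in either fit or with the block.

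**Figure D4:**
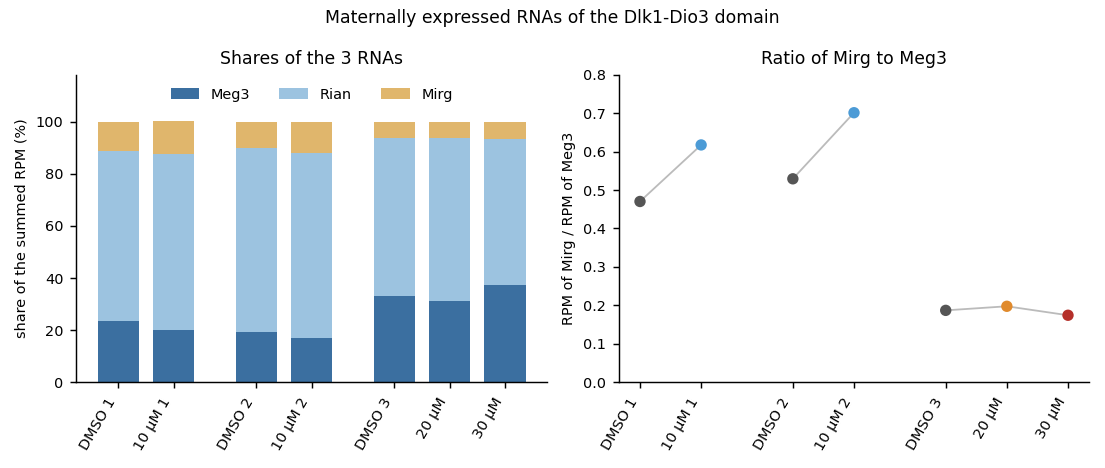
Left, share of the summed RPM of Meg3, Rian and Mirg taken by each, in percent, per library; right, RPM of Mirg divided by RPM of Meg3. The ratio is between 0.470 and 0.701 in set A and between 0.175 and 0.198 in set B.

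H19 (chr7:142575531-142578146, minus strand), a short RNA that represses growth in the embryo, was scarce. It stood at 3.01 and 2.50 RPM in DMSO 1 and 2 (63 and 70 read pairs), 3.31 and 3.58 RPM at 10 µM (84 and 84 read pairs), 10.9 RPM in DMSO 3 (235 read pairs), 23.8 RPM at 20 µM (221 read pairs) and 13.2 RPM at 30 µM (308 read pairs). Every inhibitor library was above its DMSO, but at 10 µM replicate 1 the interval of the ratio, 0.784 to 1.55, includes no change. The ratio was 1.43 (1.03 to 2.00) at 10 µM replicate 2, 2.17 (1.80 to 2.62) at 20 µM and 1.20 (1.01 to 1.43) at 30 µM. The 20 µM library carried most of the difference in set B, and the slope was 0.16 ± 0.12 (SE) per 10 µM (limma, adjusted p = 0.749). In the same library Igf2, the growth factor gene opposite H19, had its highest level, 1.83 RPM, against 0.77 RPM or less elsewhere. That level rests on 17 read pairs in the shallowest library, beside 18 at 30 µM. Igf2 averaged 0.45 RPM, under the filter of 1 RPM, and was not tested. Of the 14 fibroblast markers, 9 were higher and 4 lower at 20 µM than in DMSO 3, and the list summed to 36.9 and 31.8 RPM. H19 was 3.97-fold higher in DMSO 3 than in the mean of DMSO 1 and 2. There 10 of the 14 markers were above both DMSO 1 and 2 and 2 below both. Fbn1, the largest part of the list's sum, was among those below, at 17.3, 19.8 and 14.7 RPM in DMSO 1, 2 and 3, and Tnc was among those above, at 0.14, 0.07 and 2.61 RPM. The part of the feeder cells in the H19 values was not tested.

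Nespas (chr2:174281236-174295436, minus strand) overlaps Gnas, which encodes a G-protein subunit, over 11.1 kb on the opposite strand. It stood at 203.2 and 170.1 RPM in DMSO 1 and 2, at 212 and 179 RPM at 10 µM, at 224 RPM in DMSO 3, at 152 RPM at 20 µM and at 222 RPM at 30 µM. The 10 µM values lay between and beside those of DMSO. Read against its own DMSO, each 10 µM library was slightly higher, beyond counting error (ratios 1.042, 1.001 to 1.085, and 1.054, 1.011 to 1.099). The 30 µM value was within counting error of DMSO 3 (ratio 0.992, 0.954 to 1.03). This leaves 20 µM as the only library below its DMSO beyond counting error (0.679, 0.639 to 0.721). The slope was -0.02 ± 0.08 (SE) per 10 µM (limma, adjusted p = 0.976). Gnas itself was 31.2 and 28.5 RPM in DMSO 1 and 2, 38.9 and 30.5 RPM at 10 µM, 53.9 RPM in DMSO 3, 74.0 RPM at 20 µM and 74.3 RPM at 30 µM, above its own DMSO in 4 of 4 libraries without passing (slope 0.17 ± 0.06, limma, adjusted p = 0.357).

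Peg13 (chr15:72805599-72810324, minus strand) could not be measured from this table. It lies wholly inside Trappc9 on the same strand, and 387 of the 388 rows nested in another row on the same strand (99.7%) are at 0 in every library, against 2575 of 22168 other rows (11.6%). Its 0 is thus no sign that the RNA was absent. Trappc9, the trafficking complex gene around it, was 296 and 314 RPM in DMSO 1 and 2, 251 and 297 RPM at 10 µM, 219 RPM in DMSO 3, 122 RPM at 20 µM and 156 RPM at 30 µM. It was lower in 4 of 4 inhibitor libraries without passing (slope -0.19 ± 0.07, limma, adjusted p = 0.338). Ago2, an Argonaute gene beside it, was also lower in 4 of 4 (slope -0.08, adjusted p = 0.766), and Chrac1 was between 1.67 and 4.09 RPM.

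**Figure D5:**
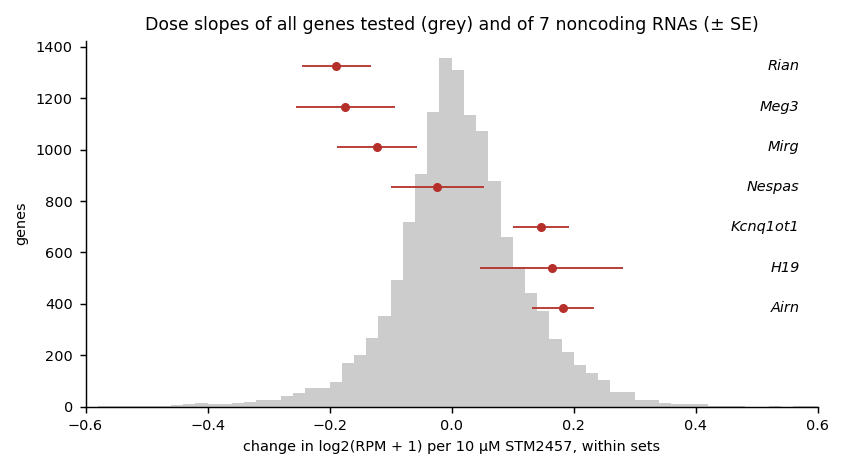
Distribution over 13599 genes of the change in log2(RPM + 1) per 10 µM STM2457 within sets (grey, number of genes), with the slopes of the 7 detected noncoding RNAs and their SE (red). Rian, Meg3 and Mirg lie at percentiles 3.17, 3.88 and 7.93 of all genes, and Kcnq1ot1, H19 and Airn at percentiles 90.2, 92.3 and 94.0.

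Among 30 other imprinted genes listed, 29 were in the table and 21 were tested. In the dose fit 0 rose and 1 fell, Peg3, a paternally expressed zinc finger gene, by 0.34 per 10 µM (-0.34 ± 0.06, limma, adjusted p = 0.0456), as 0.125% of all genes did. Peg3 was 168 and 159 RPM in DMSO 1 and 2, 113 and 109 RPM at 10 µM, 159 RPM in DMSO 3, 98.2 RPM at 20 µM and 88.8 RPM at 30 µM, with no overlap between the DMSO and inhibitor libraries. The slope kept its call with the replicate block (limma, adjusted p = 0.0395), a mean of at least 5 RPM (0.0465) and TMM factors (0.0237). It also kept it with edgeR (adjusted p = 0.0233) and DESeq2 (7.89e-06), and without the 20 or the 30 µM library (-0.33 and -0.42). It lost its call in limma with a pseudocount of 0.1 RPM (-0.34, adjusted p = 0.0529), with no filter (-0.34, adjusted p = 0.151) and without the set term (-0.30, adjusted p = 0.489). It also lost it without any 1 of the DMSO and 10 µM libraries, with slopes of -0.32 to -0.42. Without DMSO 3, set B compares only 20 with 30 µM. At 10 µM 0 of the 21 passed in limma without the block. Without a block, Peg3 passed in DESeq2 (-0.59, adjusted p = 0.00395) but not in edgeR (-0.58, adjusted p = 0.381). With the replicate block, under which 3.38% of all genes fell and 4.13% rose, Peg3 fell (-0.56, adjusted p = 4.10e-12) and 2 rose, Mest (0.31, adjusted p = 0.0293) and the growth factor receptor adaptor Grb10 (0.48, adjusted p = 7.98e-05). Grb10 was 33.3 and 38.0 RPM in DMSO 1 and 2, 42.8 and 58.4 RPM at 10 µM, 26.5 RPM in DMSO 3, 17.1 RPM at 20 µM and 17.5 RPM at 30 µM, above DMSO in set A and below it in set B. Higher in all 4 inhibitor libraries were 3 of the 21, and lower in all 4 were 3, beside 15.9% and 14.0% of all genes. Their median slope was 0.00 per 10 µM. The 10 genes listed for imprint maintenance and m6A writing, all tested, summed to 1167 to 1533 RPM, with Zfp57 highest (mean 307 RPM) and Dppa3 lowest (4.16 RPM). Of them, 0 passed in the dose fit or at 10 µM without the block, and 1 rose with it, beside 4.13% of all genes. Higher than DMSO in all 4 inhibitor libraries was 1 of the 10, and lower in all 4 were 4, beside 15.9% and 14.0% of all genes.

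The genes most like Kcnq1ot1 over the 7 libraries, by Pearson r of log2(RPM + 1) after centring within sets, were 2210408F21Rik (0.998), Rbm20 (0.992) and Col4a2 (0.991). Airn followed it with r = 0.938, rank 109 of 13598 genes. Rian ran against it (r = -0.867). These values describe 7 libraries that share depth and set, and carry no test.

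GGACT, the sequence in which METTL3 most often methylates the adenosine, was counted on the sense strand of each member's longest GENCODE M21 transcript. For spliced members such as Airn (1375 bases) and Rian (8089 bases) this leaves out most of the intronic sequence that chromatin-associated reads cover, while for the unspliced Kcnq1ot1 (93092 bases) it does not. Nespas holds 10 in 2248 bases (4.45 per kb) and H19 6 in 2286 bases (2.62 per kb), at percentiles 99.8 and 96.7 of 19175 genes with a transcript of at least 1000 bases. Mirg holds 6 (1.57 per kb), Meg3 16 (1.10 per kb), Kcnq1ot1 80 (0.859 per kb), Airn 1 (0.727 per kb) and Rian 2 (0.247 per kb), beside a median of 1.0 per kb and a share of 92.8% of genes with at least 1. A match of these letters is a description, not a methylated site.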

How the data were processed

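ChrRNA-seq values of 7 libraries were used. Per the study's methods, rRNA reads were first discarded (Bowtie2). The remaining pairs were mapped by STAR to mm10 with strain variants masked, uniquely placed pairs were counted by strand over whole transcripts, introns included (featureCounts 1.5.2), and the authors deposited RPM, which edgeR had scaled to a total of 1000000. Whole reads were recovered from the RPM steps (100% of values within 0.1 of a whole number). The 13599 genes averaging at least 1 RPM were tested with limma 3.58.1 (R 4.3.3, moderated with trend) on log2(RPM + 1), adjusted by Benjamini-Hochberg, for 10 µM against DMSO 1 and 2 and for the slope over dose with a set term. Fold changes on this scale understate those of low genes. The 20 and 30 µM libraries have no replicate and, outside the slope, no test: at least 1.5-fold was called, with Clopper-Pearson intervals at 95% on read pairs. Alternatives were a replicate block, other pseudocounts, filters and scalings, edgeR 4.0.16 and DESeq2 1.42.0 on recovered reads, and leaving out libraries. The limma fits without a block were tried on simulated counts that held no difference between sets and no replicate pairs. Those counts therefore do not gauge how the fits handle either feature. Tables were handled in Python 3.11.15 with pandas 2.3.3, numpy 2.4.6 and scipy 1.17.1.

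By the study's account, DMSO and inhibitor wells of a replicate came out of one cell batch, which pairs DMSO and 10 µM by number. Deviations of same-numbered libraries correlated across 13599 genes (r = 0.621).

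The members and the gene lists were chosen with earlier results of these data known. Named genes are all 8 members, listed neighbours and other imprinted genes past the threshold in one of 3 fits (10 µM, its block and dose), otherwise up to 3 per neighbour list with the highest mean, the listed markers with the highest and lowest mean, and the 3 genes most correlated with Kcnq1ot1. Other genes were named after their values were seen. No mitochondrial transcripts of the list were in the table. The table's starts lie 1 base before those of RefSeq on the plus strand. The allelic table was not used here.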

Additional observations from a re-analysis of the deposited data

Results flagged for a closer look

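Of the 7 members and 12 other tested genes described with them, 3 lay on one side of DMSO in both 10 µM libraries and on the other side in both the 20 and 30 µM libraries, each read against its own DMSO library. So did 9 of the 42 tested members, listed neighbours and other imprinted genes and 11.4% of all genes. For Nespas the mean log2 difference was 0.07 at 10 µM and -0.28 at 20 and 30 µM, a gap of -0.35, although its 30 µM value alone was within counting error of DMSO 3. For Begain, the coding gene upstream of Dlk1, the means were 0.12 and -0.17, a gap of -0.29, but each of its 4 ratios was within counting error of 1. For Grb10 they were 0.48 and -0.59, a gap of -1.07, the widest of the 3. The difference between the doses was not tested in any of them, since 20 and 30 µM have no replicate, and dose and set cannot be told apart.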

How the results depend on the processing

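Among the members measured, depth limits H19 most (63 to 308 read pairs a library). Of 376 repeats of single-gene values, 327 stayed on their side of the threshold or within counting error, 14 turned sign, 11 gained and 8 lost a call, and 16 single-library values moved.

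With the replicate block, 1020 genes passed at 10 µM and 58 in the dose fit, against 1 and 27 without it. At 10 µM DESeq2 called 11, and 0 passed with all 3 DMSO libraries, a mean of at least 5 RPM or no filter. Leaving out one library gave 0 to 62. In the dose fit 0 passed without the set term or without a filter, 15 with a pseudocount of 0.1 RPM, 68 with TMM factors, 73 with edgeR, 294 with DESeq2 and 63 with totals that left out the 5 genes high at 20 µM. Leaving out one library gave 0 (DMSO 1 or DMSO 3) to 426 (30 µM). Of 1752 genes past 1.5-fold at 20 µM, 304 passed 2-fold. Of 1073 at 30 µM, 151 passed 2-fold. Called anew at 1.5-fold, the 30 µM count was 1759 with a pseudocount of 0.1 RPM and 706 with a mean of at least 5 RPM. TMM factors turned the 20 µM split from 766 higher and 986 lower to 1150 and 599.

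Signs turned with all 3 DMSO libraries at 10 µM for Kcnq1ot1 (-0.20), Airn (-0.15), H19 (-0.31) and Nespas (-0.020), since DMSO 3 was higher in each. Leaving out one library at 10 µM gave -0.032 (DMSO 2) to 0.14 (DMSO 1) for Mirg and -0.060 to 0.20 (the same libraries) for Nespas, which was -0.05 without 10 µM replicate 1. In the dose fit, without the set term, Meg3 was 0.020 and Slc22a18 -0.11. Leaving out one library in the dose fit gave -0.21 (30 µM) to 0.13 (DMSO 3) for Mirg, -0.10 (DMSO 3) to 0.43 (30 µM) for H19 and -0.16 (30 µM) to 0.23 (DMSO 3) for Nespas, and Grb10 turned to 0.33 without DMSO 3. The cause of the other changes was not tested.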

Other observations

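Xist, looked up after the values of Kcnq1ot1 were seen, ran close to it within sets (Pearson r = 0.973 over 7 libraries, rank 26 of 13598 genes). It was 1540 and 1690 RPM in DMSO 1 and 2, 1654 and 1720 RPM at 10 µM, 3209 RPM in DMSO 3, 4161 RPM at 20 µM and 5172 RPM at 30 µM. Like Kcnq1ot1, Airn and H19, it was above its own DMSO in all 4 inhibitor libraries and higher in DMSO 3 than in DMSO 1 and 2. These values share libraries and depth and carry no test.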
